A study of Bos taurus with 6 samples.

Results

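MT1A and MT2A are the metallothionein genes that carry a single gene name and a member's symbol on the bovine Affymetrix array, with 1 probe set each. A probe set is a group of short probes read as 1 value. They are 2 of 9155 genes with a named probe set, and their 2 probe sets are among 24016 compared. They were selected on their signal in these arrays, because both were higher with transforming growth factor beta 3 (TGF-beta3) and higher with loading. The differences in those pairs of arrays are therefore a description of the choice, and no test is given for either gene.

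Metallothioneins are small, cysteine-rich proteins that bind zinc and copper through their thiol groups, buffer these metals and take up reactive oxygen. Their transcription is known to respond to zinc through the metal-sensing factor MTF1, and also to glucocorticoids, inflammatory cytokines such as interleukin 6, and oxidants. In bovine RefSeq (assembly ARS-UCD2.0) MT1A, LOC768319, LOC613358, MT2A, MT3 and MT4 are 6 consecutive genes, and MT1A, LOC768319 and LOC613358 all have MT1E among their synonyms. MT3 is known mainly from brain and MT4 from stratified epithelium.

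The arrays held bone marrow mesenchymal stem cells (MSCs) of Bos taurus, encapsulated in agarose and grown in defined medium, with 1 array for each of 6 conditions. Cells without TGF-beta3, the undifferentiated controls, were sampled after 3, 21 and 42 days. Cells given TGF-beta3 to induce chondrogenesis were sampled after 21 and 42 days, and a further culture had 21 days with TGF-beta3 and then 21 days of dynamic compression, still with TGF-beta3, up to day 42. No condition has a replicate, so the spread between cultures is unknown and precision is limited by having single arrays. How many donors and constructs each array stands for is not stated in the labels. In whole-construct RNA, fewer cells of a type and less RNA per cell cannot be told apart.

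Signal is the deposited MAS5 intensity on a linear scale, and values under a floor of 15.1, the 40th percentile of all values, were raised to it. Between 7 and 8 of 10 marrow stromal cell markers lay above the floor on each array and LEPR was under it on all 6. They had a summed signal of 1497 to 3459. At most 5 of 8 macrophage and blood cell markers were above the floor, with a summed signal of 203 to 574 without TGF-beta3 and 61.0 to 118 with it. Of 6 endothelial markers 2 were above the floor on each array and CDH5, KDR and VWF on none. Their summed signal was 63.3 to 129 without TGF-beta3 and 243 to 421 with it, of which ERG made up 30.3 to 80.2 and 210 to 388. Of 10 cartilage markers 8 had a probe set, and their summed signal was 4181 to 7107 without TGF-beta3 and 27667 to 46401 with it. Fat cell markers went the other way, at 5065 to 16262 without TGF-beta3 and 470 to 926 with it. The part of these cell types in the differences described here was not tested. The median signal of 18 hybridisation spike probe sets, foreign transcripts added to each array, was 2618 to 3727 on 4 arrays. On both day 42 arrays with TGF-beta3 it was higher, 7304 unloaded and 5823 with loading.

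MT1A was at its lowest on the arrays without TGF-beta3. Its signal there was 119 at day 3, 133 at day 21 and 162 at day 42. With TGF-beta3 it was 1127 at day 21 and 335 at day 42, and 1870 at day 42 after loading. All 3 arrays with TGF-beta3 thus lay above all 3 without it, with the loaded array highest, the day 21 array next and the unloaded day 42 array nearest to the controls. With single arrays, the order among the 3 controls cannot be set against any spread.

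MT2A had the same 3 arrays on top and a different order below them. Its signal was 1543 with TGF-beta3 at day 21, 694 at day 42 and 4202 at day 42 after loading. Without TGF-beta3 it was 404 at day 3, 135 at day 21 and 255 at day 42. The day 3 array was the brightest control for MT2A and the dimmest for MT1A. Both genes were well over the floor on every array, at 7.83 times the floor or more, so none of their differences is a bound. On the loaded array the MT2A probe set was brighter than 99.0% and the MT1A probe set brighter than 97.4% of all probe sets of that array.

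**Figure D1:**
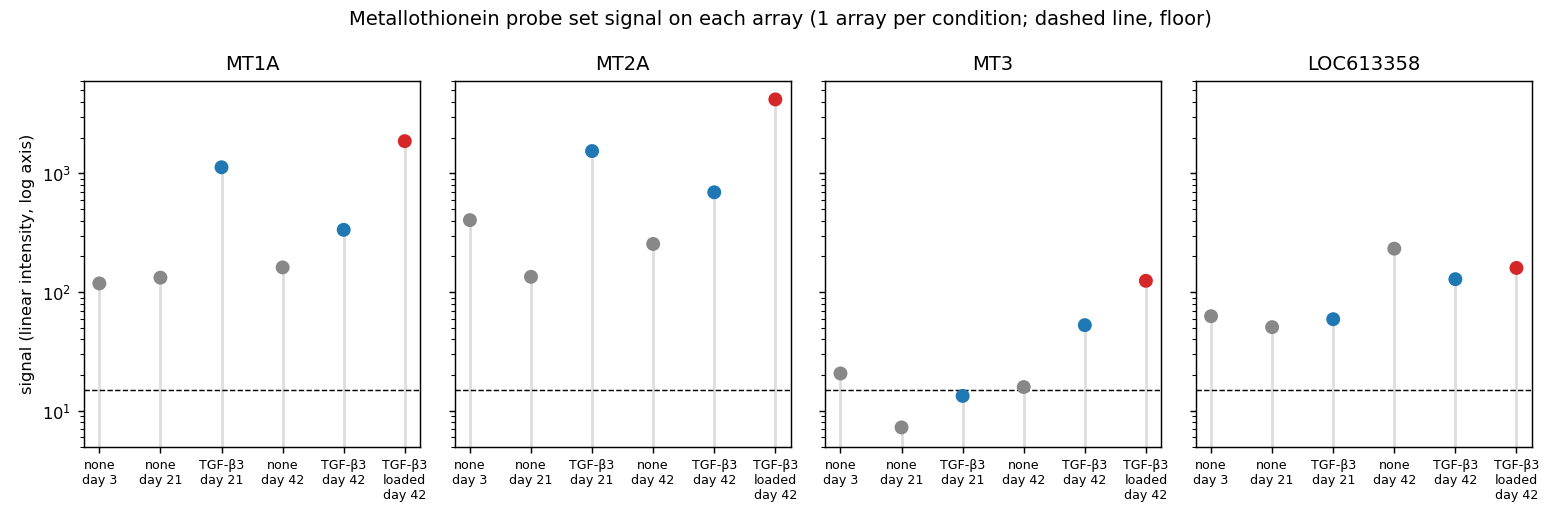
Signal of 4 metallothionein probe sets (linear intensity on a log axis) on each of 6 arrays, 1 point per array, grey without TGF-beta3, blue with it and red with TGF-beta3 and loading; the dashed line is the floor of 15.1. MT1A and MT2A are highest on the loaded array (1870 and 4202), MT3 reaches 125 there, and LOC613358 is highest at day 42 without TGF-beta3 (232).

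At day 21 MT1A was 8.50-fold and MT2A 11.5-fold higher with TGF-beta3 than without it. In log2 terms these are differences of 3.09 and 3.52. They stood 119th and 82nd from the top of 15466 probe sets compared, of which 13.3% were at least 2-fold higher. Over 9 alternatives they lay between 2.70 and 3.18 for MT1A and between 3.13 and 3.61 for MT2A. Among these, other percentile floors and other size rules could not move the values, since both genes lay well over the floor. The spikes were higher by log2 0.30 and 67 ribosomal protein genes by a median of 0.39 on the same pair.

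At day 42 the differences with TGF-beta3 were smaller, 2.07-fold for MT1A and 2.72-fold for MT2A, in a pair where 2-fold higher values or more were seen for 24.5% of 16874 probe sets. The spikes differed by log2 1.32 and the ribosomal protein genes by log2 1.33 in the same direction, more than the log2 difference of 1.05 for MT1A and close to the 1.45 for MT2A. With the arrays centred on the spikes the differences became -0.27 and 0.13, and with centring on the ribosomal protein genes -0.28 and 0.12. A higher level of MT1A or MT2A with TGF-beta3 at day 42 is therefore seen under the authors' scaling and under quantile normalization (1.14 and 1.51), but for MT1A it turned direction under both of these centrings. Whether the size of the TGF-beta3 difference changed between the days was not tested.

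Dynamic compression went with the highest signal of either gene. The loaded array exceeded the unloaded day 42 array 5.58-fold for MT1A and 6.06-fold for MT2A, log2 differences of 2.48 and 2.60. These were the 76th and 59th highest of 17448 probe sets compared, of which 10.2% were at least 2-fold higher. Spikes and ribosomal protein genes were lower on the loaded array, by log2 differences of -0.33 and -0.55, and centring on them widened the gap, to at most 3.03 for MT1A and 3.14 for MT2A. The lowest values over 9 alternatives were 2.32 and 2.35, where other percentile floors and other size rules could not move the values. The ratio of 3 prime to 5 prime signal was higher on the loaded array for PPIB (7.52 against 4.95) and EIF4E (8.05 against 7.41) and lower for GAPDH (1.80 against 2.15), and its part in the result was not tested.

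**Figure D2:**
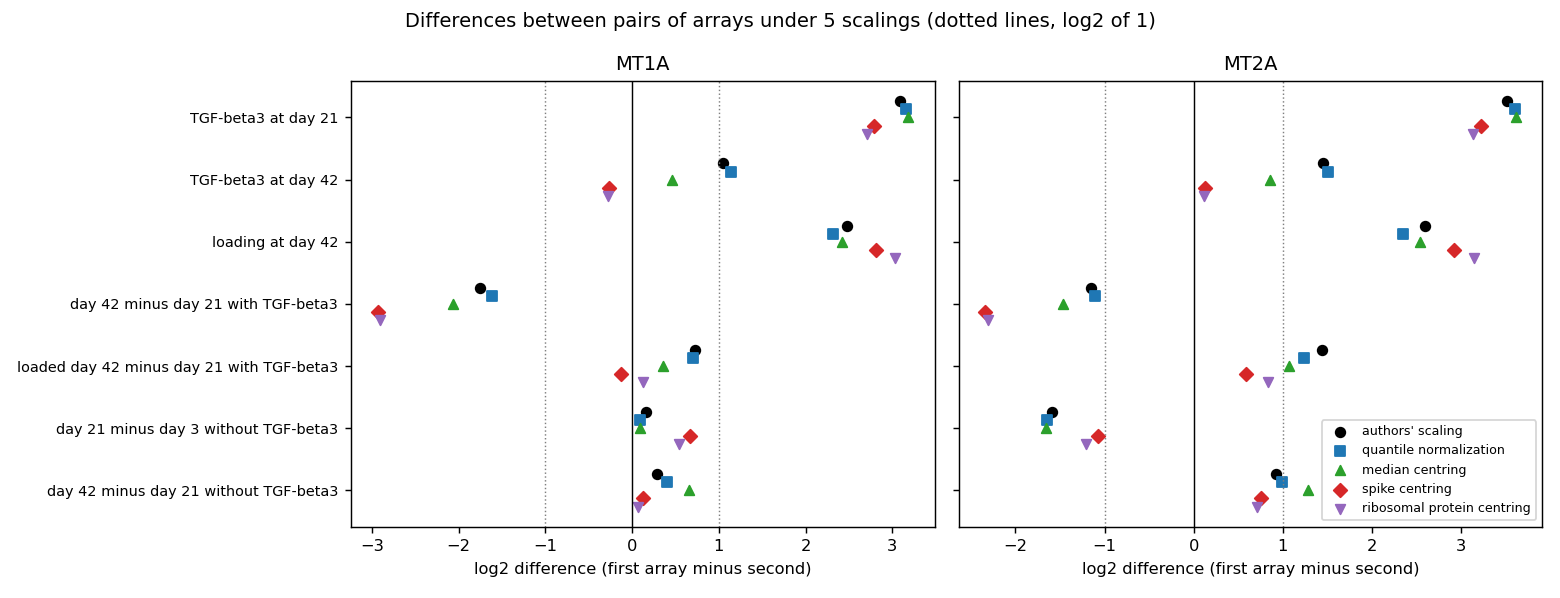
Log2 differences (horizontal axis, first array minus second) of MT1A and MT2A in 7 pairs of arrays, with a symbol for each of 5 scalings; dotted lines mark a log2 difference of 1. The symbols stay together for TGF-beta3 at day 21 and for loading, and spread from 1.05 to -0.28 for MT1A and from 1.45 to 0.12 for MT2A between the authors' scaling and the ribosomal protein centring at day 42.

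Time in culture showed where the genes parted. With TGF-beta3, day 42 was lower than day 21 for both, 3.36-fold for MT1A and 2.22-fold for MT2A, in a pair where the share lower by 2-fold or more was 14.1%. The loaded day 42 array, by contrast, was 2.72-fold above the day 21 array with TGF-beta3 for MT2A and 1.66-fold above it for MT1A, against a share of 15.1% higher by 2-fold or more in that pair. The MT1A value did not reach the 2-fold size rule, and spike centring left log2 -0.13 for MT1A and 0.59 for MT2A. These comparisons share arrays with those of TGF-beta3 and loading and are not independent of them.

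The differences between days without TGF-beta3 share the day 21 control with the day 21 pair on which the genes were chosen, and that choice favours a low value there, so they too are a description. MT2A was 3.00-fold lower at day 21 than at day 3 (log2 -1.59), 206th from the bottom of 15054 probe sets, of which 5.2% were at least 2-fold lower. MT1A differed by log2 0.16 over the same days. From day 21 to day 42 MT2A was 1.89-fold higher and MT1A 1.22-fold higher, neither past 2-fold, against 3.29% of probe sets that were. The MT2A difference between days 3 and 21 kept its direction and size class under all 9 alternatives, between -1.66 and -1.08. Only the other scalings and adding the floor value could move it.

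The pairs of TGF-beta3 against none at day 21 and of loaded against unloaded at day 42 have no array in common. Of 6696 genes compared in both, 972 were at least 2-fold higher with TGF-beta3 at day 21 and 579 with loading. In both pairs 117 were, 12.04% of the 972 and 20.2% of the 579. Whether this overlap exceeds that of unrelated differences was not tested. At a 5-fold size there were 7, which were MT1A, MT2A, the cytokine IL6, the antimicrobial cathelicidin CATHL5, the kinetochore protein CENPF, the replication-associated PCLAF and the acetyltransferase NAA60, named after their values were seen. MT1A and MT2A were chosen for being higher in these pairs, so their place among the genes is a description of that choice. No gene exceeded MT2A in both pairs, and the 1 that exceeded MT1A in both was MT2A. Adding the day 42 pair with TGF-beta3, 31 of 6601 genes were at least 2-fold higher in all 3 pairs. MT1A and MT2A were among these 31, and among the 28 under quantile normalization, but not among the 21 under median centring, the 31 under spike centring or the 41 under ribosomal protein centring.

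**Figure D3:**
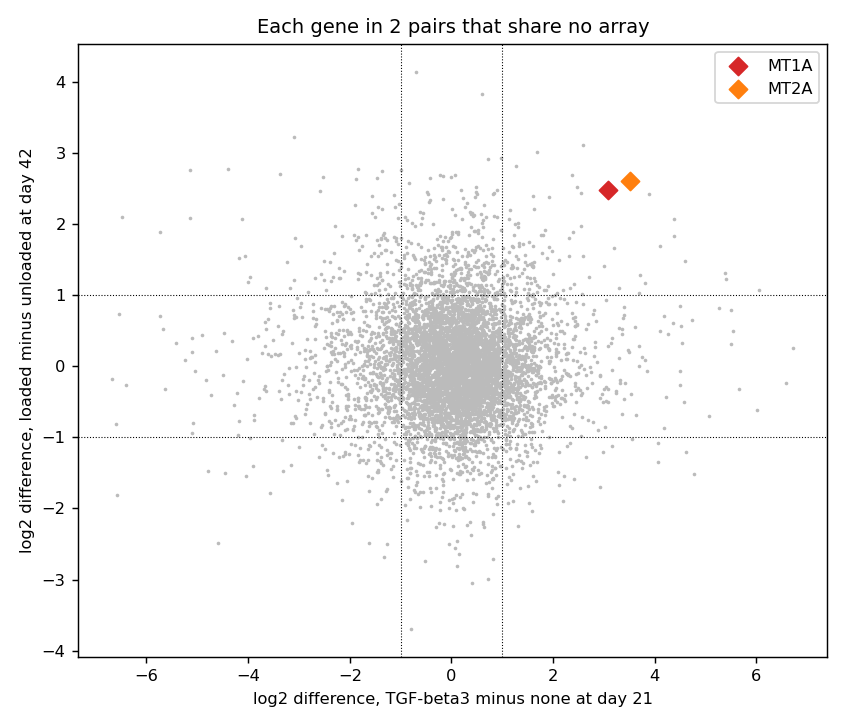
Each grey point is 1 of 6696 genes, with its log2 difference for TGF-beta3 against none at day 21 (horizontal) and for loaded against unloaded at day 42 (vertical); dotted lines mark log2 differences of 1 and -1. MT1A (3.09 and 2.48) and MT2A (3.52 and 2.60) lie in the sparse upper right corner. Both were chosen for being higher in these pairs.

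MT1A and MT2A were chosen for the same pattern on these arrays, so a likeness between their profiles is largely fixed by the choice. Over the 6 arrays Pearson's r between their log2 signals was 0.94, given as a description of 6 points that share array scaling. Ranked by r among 5108 genes that varied at least 2-fold, MT2A was 54th for MT1A, and MT1A 30th for MT2A. By Spearman's rho, which was 0.83, they were 295th and 337th. By the root mean square difference of centred profiles, which also counts the size of the swings, MT1A was 3rd for MT2A and MT2A 11th for MT1A, at 0.56 log2 units.

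The 5 genes with the highest r to MT1A were GPT, RBM28, MAP1LC3C, ZFPL1 and PTPRH (0.982 to 0.995). All of them were dim, at signals of at most 63.3, and their log2 differences with loading were 1.01 to 1.55 against 2.48 for MT1A. GPT encodes alanine aminotransferase and MAP1LC3C an autophagy protein. For MT2A they were SV2A, CETN4, PPP4C, TRIM47 and REXO1 (0.973 to 0.991), with log2 differences of 0.46 to 1.47 with loading. PPP4C encodes the catalytic subunit of protein phosphatase 4. Of the 5 for MT1A, 1 was in the top 5 under median centring and 0 under quantile normalization, spike or ribosomal protein centring, Spearman's rho or the root mean square difference. Of the 5 for MT2A, 3 were kept under quantile normalization, 2 under median centring, 1 by Spearman's rho and 0 under spike or ribosomal protein centring or by the root mean square difference. The names thus depend on both the scaling and the measure of likeness.

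The neighbouring metallothioneins did not share the whole pattern. MT3 had signals of 20.7, 7.26 and 15.9 at days 3, 21 and 42 without TGF-beta3, 13.4 at day 21 and 52.7 at day 42 with it, and 125 after loading. It was thus 2.36-fold higher with loading, but under the floor on both day 21 arrays. The LOC613358 probe set, looked at after its values were seen, had signals of 62.8, 50.8 and 232 at days 3, 21 and 42 without TGF-beta3, and 59.2 at day 21, 129 at day 42 and 160 after loading with it. It was 4.58-fold higher at day 42 than at day 21 without TGF-beta3 and only 1.24-fold higher with loading. MT4 and LOC768319 had no named probe set, and whether the MT1A and MT2A probes also bind the transcripts of these similar genes could not be checked from the files.

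The remaining genes come from 7 lists of metal, redox, glucocorticoid and heat shock genes. For these the TGF-beta3 difference over days 21 and 42 was tested with limma on 4 arrays, with a term for day and Benjamini-Hochberg adjustment over 14839 probe sets, and rose and fell refer to an adjusted p under 0.05. The fit has 1 residual degree of freedom, and its p-values lean on the spread pooled over probe sets. With 1 array per condition, that residual is the change of the TGF-beta3 difference between the days. It does not measure the spread between cultures, so the p-values and SEs do not stand for replicates. Of 6835 genes tested 7.11% rose and 7.7% fell, with a median log2 difference of 0.13. Over all the lists 80 genes were tested, of which 7 rose and 12 fell. The 7 became 0 with centring on the spikes or on the ribosomal protein genes. At an unadjusted p under 0.05 by limma, 3 genes were higher and 23 lower under spike centring, and 3 higher and 29 lower under ribosomal protein centring. No other tool was run.

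Among zinc genes, MTF1, the zinc-sensing factor that drives metallothionein transcription, was dim and did not pass (adjusted p = 0.684 by limma), at 36.0, 31.3 and 43.1 without TGF-beta3, 44.0 and 65.4 with it and 52.9 after loading. SLC30A1, the zinc exporter at the cell surface and a known MTF1 target, was 469 with TGF-beta3 at day 21 against 185 without it, and at day 42 it was 140 without, 126 with and 126 after loading. Its log2 difference was thus 1.34 on the day 21 pair and -0.0048 on the loading pair, and SLC30A1 did not pass (adjusted p = 0.449 by limma). The part of zinc or MTF1 in the metallothionein differences was not tested. The zinc importers, SLC39A7 of the secretory pathway and SLC39A14 of the cell surface, rose among the 12 zinc genes tested, and none fell (0 of 12 lower also at an unadjusted p under 0.05 by limma). For SLC39A7 the mean was log2 1.69 ± 0.35 (SE; limma adjusted p = 0.000336) and for SLC39A14 it was 1.58 ± 0.37 (limma adjusted p = 0.00151). Neither passed under spike centring (adjusted p = 0.464 and 0.629 by limma), and leaving out the day 21 or the day 42 control ended both calls.

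With loading, 0 of 15 zinc genes compared were at least 2-fold higher and 1 (SLC39A3, under the floor on the loaded array) was lower. The shares over all 7703 genes were 8.41% and 7.41%, so these counts are near the background, and the median log2 difference was -0.33, against -0.04 for all genes. SLC39A14 went from a signal of 885 to 899 and SLC39A7 from 4025 to 3158. The 11 copper genes had none past 2-fold in either direction with loading. In that list the copper importer SLC31A1 (443, 419 and 444 without TGF-beta3, 733 and 1686 with it, 1357 loaded) and ceruloplasmin (CP), a copper-carrying ferroxidase, rose with TGF-beta3, and SLC31A2 fell. Mean log2 differences were 1.37, 1.47 and -3.13, and the rises of SLC31A1 and CP were not called under median, spike or ribosomal protein centring. SLC31A2 was under the floor on the unloaded day 42 array with TGF-beta3, so its fall is a lower bound in size. Its call was lost in 2 of 15 alternatives.

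**Figure D4:**
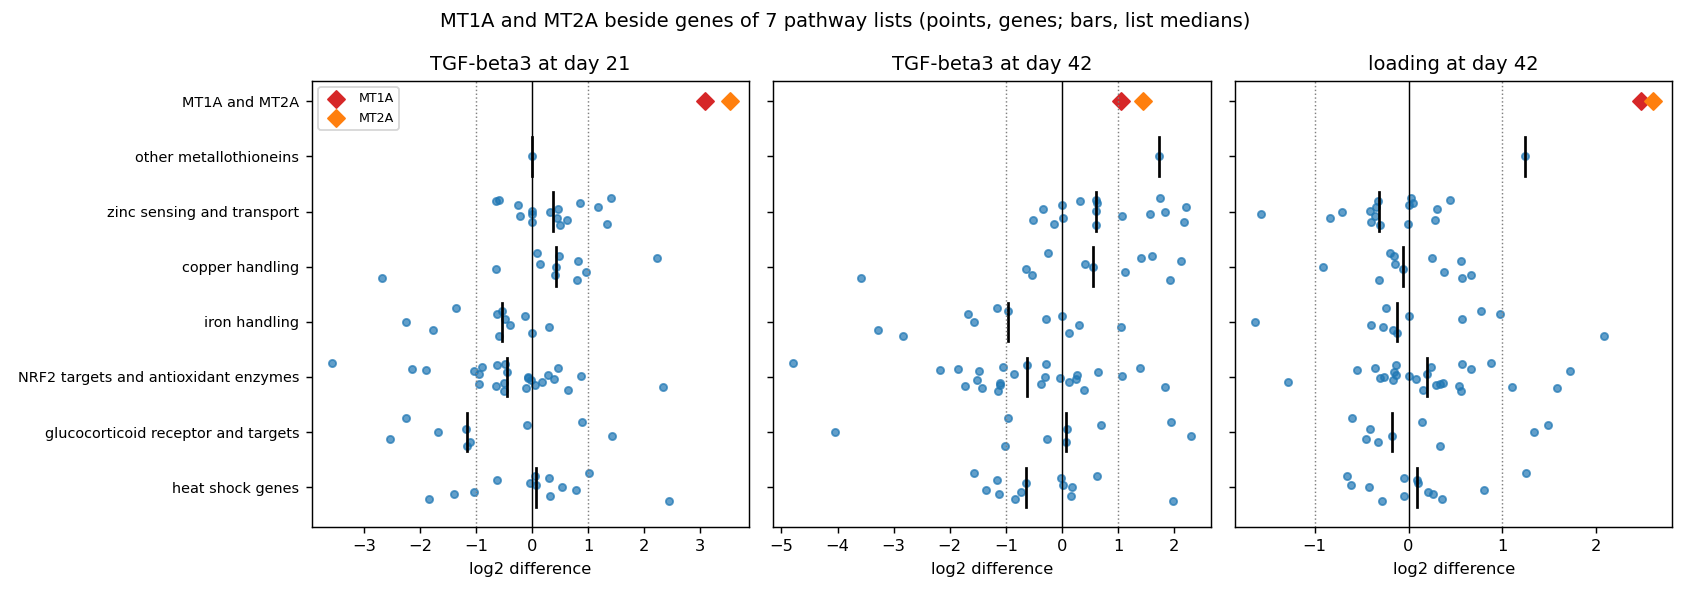
Log2 differences of single genes (blue points) in 7 lists, with list medians as black bars, beside MT1A and MT2A (diamonds, top row) for TGF-beta3 at day 21, TGF-beta3 at day 42 and loading; dotted lines mark a log2 difference of 1. On the loading panel MT1A and MT2A are at 2.48 and 2.60, and the point for TFRC at 2.09 is a lower bound, so it has no exact place beside them.

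Of 25 NRF2 target and antioxidant genes tested, 1 rose and 3 fell with TGF-beta3. MGST1, a membrane glutathione transferase, was 4535 without and 381 with TGF-beta3 at day 21, and 5566 and 201 at day 42, a mean of log2 -4.18 ± 0.35 (SE; limma adjusted p = 8.54e-14) that was called under all 15 alternatives. Catalase (CAT), which breaks down hydrogen peroxide, and glutathione peroxidase 1 (GPX1) fell with mean log2 differences of -2.04 and -1.99, CAT under 14 of 15 alternatives. GCLC, the catalytic subunit of the enzyme that starts glutathione synthesis, rose, with a mean of log2 2.08 ± 0.71 (SE; limma adjusted p = 0.0423), a call lost in 8 of 14 alternatives. It was under the floor on the day 42 control, so this mean is a lower bound.

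GCLC was the one gene of the 7 lists among the 31 that were at least 2-fold higher in all 3 pairs, a count shared with the choice of the metallothioneins. GCLC was also counted under quantile normalization and median centring, but not under spike or ribosomal protein centring. Being in this count favours a profile like those of MT1A and MT2A. Its signal was 51.5, 28.7 and 12.3 at days 3, 21 and 42 without TGF-beta3, 144 at day 21 and 53.8 at day 42 with it, and 115 after loading, so its brightest arrays were the day 21 and loaded arrays with TGF-beta3, as for MT1A and MT2A. With loading 3 of 25 genes of this list were at least 2-fold higher and 1 lower. The others higher were the extracellular superoxide dismutase SOD3 (from 23.6 to 77.9) and the quinone reductase NQO1 (from 57.1 to 171), and the thioredoxin reductase TXNRD1 was lower (from 301 to 124). NQO1 had 156, 169 and 153 without TGF-beta3 and 156 at day 21 with it, so the unloaded day 42 array was the low one. Heme oxygenase 1 (HMOX1), an enzyme induced by heavy metals and oxidants, lay between 326 and 526 on all 6 arrays.

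Iron genes included 4 of 10 that fell and none that rose (0 of 10 higher also at an unadjusted p under 0.05 by limma). These were the iron importer SLC11A2, the iron-sensing aconitase ACO1, the ferric reductase CYBRD1 and the biliverdin reductase BLVRA, with mean log2 differences of -2.52, -1.91, -1.26 and -1.15. None of the 4 passed without the term for day, or without either control array in turn, where that term was dropped too. Over 15 alternatives the BLVRA call was lost in 9, among them quantile normalization and the 3 centrings, the CYBRD1 call in 7, and those of ACO1 and SLC11A2 in 3 each. With loading ACO1 was lower by a log2 difference of -1.64, and the transferrin receptor TFRC was at least 4.25-fold higher, being under the floor on the unloaded array.

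Genes of the glucocorticoid response went several ways. SGK1, a kinase induced by glucocorticoids, rose, with a mean of log2 1.87 ± 0.34 (SE; limma adjusted p = 5.6e-05), a call lost under spike and ribosomal protein centring. HSD11B1, which regenerates active glucocorticoid, and glutamine synthetase (GLUL) fell, with mean log2 differences of -2.87 and -1.61. FKBP5, a chaperone that glucocorticoids induce, was 2376, 2230 and 2143 without TGF-beta3. With TGF-beta3 it was 1032 at day 21, 2257 at day 42 and 1804 loaded. The part of glucocorticoids in the metallothionein differences was not tested. With loading ERRFI1, a feedback inhibitor of the EGF receptor, went from 718 to 2015 and HSD11B1 from 19.0 to 47.7.

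Metals can also induce heat shock genes. HSF1, the heat shock transcription factor, rose, and the chaperones HSPA1A and HSPB1 fell among 13 tested, with mean log2 differences of 2.21, -1.33 and -1.26. HSF1 was under the floor on the day 21 control, so its mean is a lower bound. Over 15 alternatives the calls of HSF1 and HSPA1A were lost in 7 each and that of HSPB1 in 5, with HSF1 lost under both other floors. A second HSF1 probe set and 3 of 5 other HSPA1A probe sets did not pass or were not tested. Of these 3, 1 dim probe set, at signals of at most 76.1, went the other way. It was higher with TGF-beta3 by log2 1.78 at day 21 and 1.31 at day 42, and by 1.02 with loading. The co-chaperone BAG3 had signals of 281, 332 and 423 without TGF-beta3, 673 at day 21 and 143 at day 42 with it and 342 loaded. By the brightest probe set of each gene, BAG3 was the single one of the 13 at least 2-fold higher with loading. The list's median log2 difference there was 0.09.

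Between days 3 and 21 without TGF-beta3 MT2A was lower and MT1A was not. For this pair the extreme gene of each list is named where it passed 2-fold, and other list genes passed 2-fold as well. The lowest were SOD3 (log2 -1.66) of the antioxidant, the metalloreductase STEAP2 (-1.38) of the copper and ERRFI1 (-1.13) of the glucocorticoid list. The highest of their lists were the glutathione synthetase GSS (1.43), ZBTB16 (1.24), a transcription factor that glucocorticoids induce, TFRC (1.16) and SLC31A2 (1.09).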

How the data were processed

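The authors deposited 1 linear signal intensity for each probe set and array. The submitters' processing notes name MAS5, and its version and a genome build are not given in the sources used here. Total RNA was amplified linearly and labelled with biotin, per the labels' protocols. Of 24128 probe sets 112 controls were left out. Of the rest 13292 had 1 gene name in the platform annotation, 86 several and 10638 none, and nothing was named from several. Outside MT1A and MT2A, the brightest probe set by mean log2 stood for a gene.

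The authors' scaling was kept, values under the 40th percentile were raised to it, and log2 taken. A probe set entered a pair if above the floor on 1 of its arrays. With 1 array a side only sizes are given. limma 3.58.1 in R 4.3.3 used the 14839 probe sets that exceeded the floor on 2 or more of 4 arrays. It had a term for day and a variance trend. The code was run on simulated data with large planted differences, independent noise and no day effect. That run does not bear on the p-values given here. Alternatives were 4 other scalings (quantile, median, 18 spike and 96 ribosomal protein probe sets), 3 floors or offsets, other size rules, no trend, no day term, each array left out, the loaded in place of the unloaded array, probe set medians and 1.5-fold added to the call rule.

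MT1A, MT2A and the lists were chosen with earlier results of these data known. Genes named are the members, 6 set genes (MTF1, SLC30A1, SLC39A14, HMOX1, NQO1 and FKBP5), up to 4 limma calls per list and direction, the highest and lowest list gene past 2-fold with loading or between days 3 and 21 without TGF-beta3, and the 5 genes most like each member. No sequences were used here.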

Additional observations from a re-analysis of the deposited data

Results flagged for a closer look

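Among the genes described outside the marker and control probe sets, 7 had TGF-beta3 differences of opposite sign at days 21 and 42, each from 1 pair of arrays, and the difference between the days was not tested. BAG3 was higher by log2 1.02 at day 21 and had a difference of -1.56 at day 42. SLC30A1 had log2 differences of 1.34 and -0.15, and FKBP5 of -1.11 and 0.075. ERRFI1 had log2 differences of -0.10 and 0.70, and LOC613358 of 0.22 and -0.85. On floored signals CATHL5 had log2 differences of 2.37 and -2.47, and NAA60 of 2.56 and -1.26. At day 42 the spikes of the same pair differed by log2 1.32.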

How the results depend on the processing

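For MT1A and MT2A, 9 alternatives were run in each of 7 pairs. TGF-beta3 at day 21 and loading, pairs on which the genes were chosen, stayed past 2-fold in the same direction in all 9 for both. Only the other scalings and adding the floor value could move these differences. At day 42 the MT1A difference with TGF-beta3 was log2 0.47 under median centring, -0.27 under spike centring, -0.28 under ribosomal protein centring and 0.99 with the floor value added. That of MT2A was 0.86, 0.13 and 0.12 under the 3 centrings. Loaded day 42 against day 21 with TGF-beta3 was -0.13 for MT1A and 0.59 for MT2A under spike centring, and 0.83 for MT2A under ribosomal protein centring. MT2A between days 21 and 42 without TGF-beta3 was 1.29 under median centring. A 3-fold rule would not take the log2 differences of 1.05 (MT1A) and 1.45 (MT2A) with TGF-beta3 at day 42, nor for MT2A the -1.15 between days with TGF-beta3 or the 1.44 of loaded day 42 against day 21, and a 1.5-fold rule would take 0.73 (MT1A, loaded against day 21) and 0.92 (MT2A, days 21 to 42 without TGF-beta3).

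Of the 80 list genes tested, 7 rose and 12 fell by limma. Under spike and ribosomal protein centring 0 rose. Without a variance trend 2 rose and 7 fell, and without the term for day (the block that pairs arrays) 1 rose and 3 fell. With 1 array left out and no term for day, so that an arm has 1 array assumed to vary like the rest, between 0 and 14 rose and between 1 and 22 fell: the 0 was without the day 21 control, the 14 and 22 without the TGF-beta3 array of day 21, and the 1 without the day 42 control, where 1 rose. The cause was not tested.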
